A study of Homo sapiens with 6 samples.

Results

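The 9 genes described here, out of 61543 rows of the count table (61541 Ensembl genes and 2 luciferase reporters), encode enzymes of the pentose phosphate pathway and other enzymes that make NADPH. They were chosen by name, and their expression was compared between sedanolide-treated and control cells. The cells were luciferases-expressing HepG2 cells, a human hepatoblastoma line that carries 2 luciferases on an artificial chromosome. The red luciferase SLR3 is under antioxidant response elements (AREs) and a thymidine kinase promoter, and the green luciferase ELuc is under a thymidine kinase promoter without AREs. RNA-seq was performed on 3 libraries of cells treated with sedanolide, a phthalide found in celery, at 100 μM for 24 h and on 3 libraries of control cells collected at the same time. Both groups carried both reporters and grew in the same medium, and neither the labels nor the methods say whether the control cells received the DMSO in which sedanolide was dissolved.

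NADPH is the reductant that glutathione reductase, thioredoxin reductase and the synthesis of fatty acids and cholesterol draw on. The pentose phosphate pathway makes it in an oxidative branch, in which PGLS (6-phosphogluconolactonase) and PGD (6-phosphogluconate dehydrogenase) act one after the other, and returns the pentoses to glycolysis in a non-oxidative branch through RPIA (ribose 5-phosphate isomerase), RPE (ribulose-phosphate 3-epimerase), TKT (transketolase) and TALDO1 (transaldolase). Outside the pathway, ME1 (malic enzyme 1) and IDH1 (isocitrate dehydrogenase 1) make NADPH in the cytosol, and NNT (nicotinamide nucleotide transhydrogenase) makes it at the inner mitochondrial membrane. Several genes of this system are known targets of NRF2, the transcription factor that binds AREs and is held back by KEAP1.

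The libraries held between 16420258 and 26714853 expected counts. The log2 fold change of SLR3 was 2.02 (edgeR, adjusted p = 0.00324), and that of ELuc was -0.84 (adjusted p = 0.131) with all sedanolide libraries below the controls. All 8 markers of HepG2 cells that were examined, ALB and AFP among them, were expressed. Of these, 7 had log2 fold changes below 0 (median of all 8, -0.33), and none was called, where 0.674% of all genes tested were called. In 3 of them the sedanolide libraries lay below the controls without overlap, as in 9.66% of all genes tested. At an unadjusted p under 0.05 (edgeR), 3 were lower and 0 were higher, against 6.57% and 5.35% of all genes tested. The part of this shift in the results below was not tested. By contrast, PTPRC, COL1A1, KRT5 and DES, markers of leukocytes, fibroblasts, basal epithelium and muscle, had 0 to 5 counts in a library. CD68 and PECAM1, the other 2 such markers, had mean expression between 4.46 and 14.6 CPM in both conditions. Apart from the treatment, the libraries formed a split that bears on several genes below. By component 1 of a principal component analysis (56.1% of the variance), side A held controls 1 and 2 with sedanolide 3, and side B held control 3 with sedanolide 1 and 2. The share of mitochondrial counts was 1.43% to 2.15% on side A and 4.24% to 5.22% on side B, and the part of this difference in the results below was not tested. Differences within a side set 1 library against 2 and carry no test. The labels do not say that the libraries came from separate cultures, so that p-values measure the spread between these libraries, which may be technical.

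To examine whether sedanolide changed the expression of these enzymes, all genes that passed a filter on low counts (14104, both reporters included) were fitted together. Calls required a false discovery rate (FDR) of 0.05 together with a fold change of 1.5, the cutoffs of the study. Of the 9 genes, 8 had enough counts and ME1 did not. None of the 8 was called by the quasi-likelihood test of edgeR, where 0.674% of all genes tested were called in either direction. Without adjustment, 3 of the 8 (PGD, TKT and TALDO1) had p under 0.05 with sedanolide higher and 0 with sedanolide lower, against 5.35% and 6.57% of all genes tested (11.9% together). The groups did not overlap in PGD, TALDO1 and IDH1, all 3 with sedanolide higher, as in 8.69% of all genes tested, and in 0 of the 8 with sedanolide lower, as in 9.66%. The median log2 fold change of the 8 genes was 0.21, and that of all genes was 0.0057. DESeq2, which called 2.33% of all genes tested, called 1 of the 8, PGD (adjusted p = 1.84e-05). The study, with DESeq2 and the same cutoffs, reported fewer called genes, and its text does not name PGD. With a term for the side, edgeR called 2.7% of all genes tested and the same 1 of the 8 (adjusted p = 0.0108). The side was derived from these same counts, so that p-values with this term, here and below, may be too small.

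**Figure D1:**
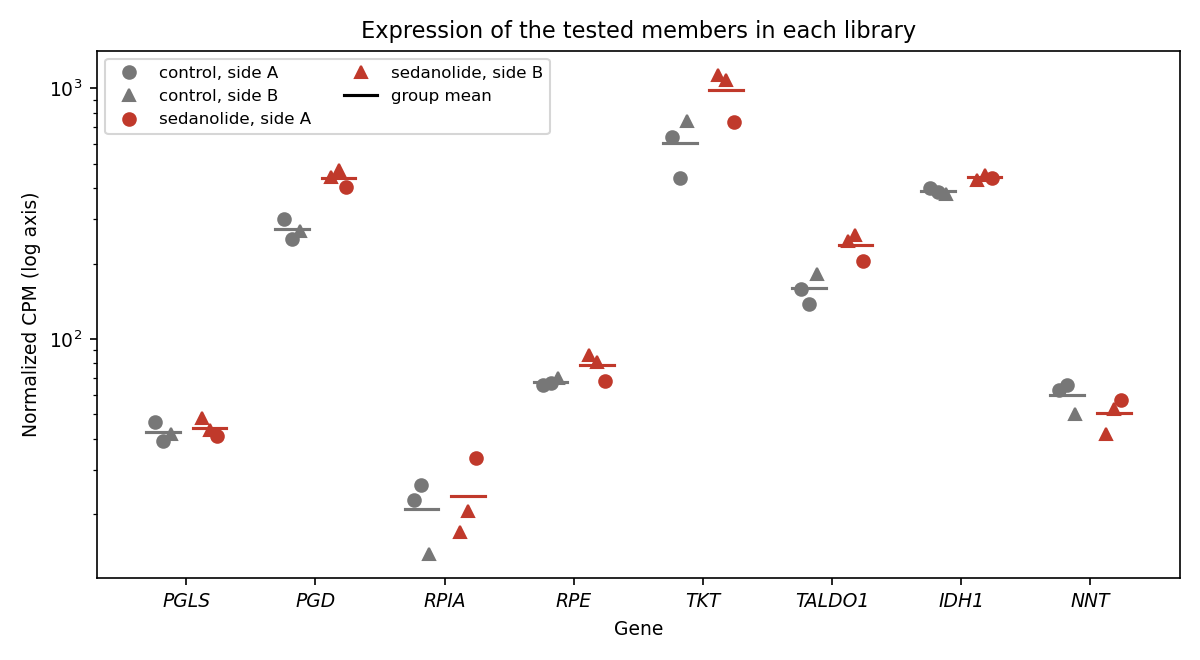
Normalized CPM (counts scaled to library size, log axis) of the 8 tested genes in each of the 6 libraries, with gray symbols for control and red symbols for sedanolide, circles for side A and triangles for side B of component 1, and a line at each group mean. In PGD all 3 sedanolide libraries lie above the controls, whereas in TKT the control 3 library (743 CPM) lies above the sedanolide 3 library (733.1 CPM).

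PGD, which catalyzes the NADPH-producing step from 6-phosphogluconate to ribulose 5-phosphate, had the smallest p-value among the 9 genes. PGD (ENSG00000142657, chromosome 1 of GRCh38, 10398592 to 10420511) had an expression of 300.3, 250.9 and 270.2 CPM in controls 1 to 3 and 444.6, 473.3 and 404.2 CPM in sedanolide 1 to 3. The lowest sedanolide library thus lay well above the highest control library. The group means of 273.8 ± 24.9 and 440.7 ± 34.7 CPM (SD, n = 3) gave a fold change of 1.61 with a 95% confidence interval of 1.31 to 1.97. The log2 fold change of PGD was 0.69 with a standard error of 0.124, its adjusted p by edgeR was 0.0770, and it ranked 145th of all genes by p-value. PGD showed a similar difference on both sides, with log2 differences of 0.56 within side A and 0.76 within side B. When each library was left out in turn, its log2 fold change stayed between 0.62 and 0.75 and its adjusted p between 0.0583 and 0.446.

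PGLS, the enzyme just before PGD in the oxidative branch, had nearly equal values in both conditions. PGLS (ENSG00000130313, chromosome 19, 17511636 to 17521288) had 46.6, 39.4 and 41.9 CPM in controls 1 to 3 and 48.4, 43.6 and 41.0 CPM in sedanolide 1 to 3. The groups overlapped throughout. Its fold change of 1.04 had a 95% confidence interval of 0.85 to 1.27 (adjusted p = 0.888 from edgeR), an interval that does not reach the fold change of 1.5 used for calls. The sign of the small difference in PGLS depended on the scaling, as its log2 fold change was 0.056 in the counts and -0.048 in the deposited log2 TPM table. PGLS overlaps the antisense transcript PGLS-DT over 254 exon bases, and the latter had 3.15% as many counts.

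The relation of both enzymes can be read within each library, where the scaling between libraries plays no part. The ratio of PGD counts to PGLS counts was 6.44, 6.37 and 6.44 in the control libraries (1 to 3) and 9.18, 10.9 and 9.87 in the sedanolide libraries. It was thus nearly constant among the control libraries of both sides and higher in each sedanolide library, by 1.55-fold on average. An exact permutation test (two-sided) gave p = 0.10, the smallest that 3 against 3 libraries allow, and 0.15 after Benjamini-Hochberg adjustment over the 3 ratios examined, which were chosen after seeing the data. The log2 difference of this ratio was 0.62 within side A, 0.63 within side B and between 0.57 and 0.69 when each library was left out.

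TKT and TALDO1, the transferases that exchange carbon units between pentoses and the sugars of glycolysis, had larger values in most sedanolide libraries. TKT (ENSG00000163931) lies on chromosome 3 from 53224712 to 53256052. Its expression was 638.2, 438.3 and 743 CPM in controls 1 to 3 and 1133, 1076 and 733.1 CPM in sedanolide 1 to 3. The sedanolide 3 library lay just under control 3, so that the groups overlapped. The log2 fold change of TKT was 0.69, hardly above that of PGD and below it within both sides and in the log2 TPM table, and its standard error was 0.243 (fold change 1.62, 95% confidence interval 1.09 to 2.41, adjusted p = 0.327 from edgeR). The order of TKT within each group went with the sides of component 1, as control 3 was the highest control and sedanolide 3 the lowest sedanolide library. The spread among the controls did not only follow the sides, since controls 1 and 2, both on side A, were farther apart than controls 1 and 3. Within the sides its log2 difference was 0.47 (A) and 0.57 (B). With the side as a term, the log2 fold change of TKT was 0.51 and its adjusted p was 0.0857.

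TALDO1 (ENSG00000177156, chromosome 11, 747415 to 765012) had 158.7, 137.8 and 182.2 CPM in controls 1 to 3 and 246.2, 259.6 and 203.9 CPM in sedanolide 1 to 3. All sedanolide libraries lay above all control libraries, with control 3 and sedanolide 3 closest to each other. The means were 159.6 ± 22.2 and 236.6 ± 29.1 CPM (SD, n = 3), a fold change of 1.48 (95% confidence interval 1.15 to 1.91). The log2 fold change of TALDO1 was 0.57 with a standard error of 0.154 (edgeR, adjusted p = 0.211). TALDO1 was past the FDR threshold with DESeq2 (adjusted p = 0.0286) and with the side as a term (adjusted p = 0.0272), where its log2 fold changes of 0.57 and 0.47 were under the fold change threshold. Within the sides the log2 difference was 0.46 (A) and 0.47 (B). The ratio of TKT counts to TALDO1 counts was between 3.18 and 4.08 in control and between 3.60 and 4.60 in sedanolide libraries, which overlapped (p = 0.40, exact permutation test, two-sided, 0.40 after adjustment over the 3 ratios).

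RPIA and RPE, which convert ribulose 5-phosphate into ribose 5-phosphate and xylulose 5-phosphate, respectively, had confidence intervals that include no change. RPIA (ENSG00000153574, chromosome 2, 88691673 to 88750929) was the gene with the widest spread, with 22.9, 26.1 and 13.9 CPM in controls 1 to 3 and 17.0, 20.6 and 33.4 CPM in sedanolide 1 to 3. These values follow the sides of component 1, since each library of side A was above each library of side B. Its fold change was 1.13 (95% confidence interval 0.675 to 1.89, adjusted p = 0.854 from edgeR), and a difference of 1.5-fold in RPIA was not resolved by these libraries. Within the sides the log2 difference of RPIA was 0.45 (A) and 0.43 (B), and with the side as a term its log2 fold change was 0.44 (adjusted p = 0.0783). Without sedanolide 3 the log2 fold change of RPIA was -0.16, and without control 3 it was -0.045.

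RPE (ENSG00000197713, chromosome 2, 210002565 to 210022260) had 65.4, 66.8 and 69.7 CPM in controls 1 to 3 and 86.7, 81.3 and 68.3 CPM in sedanolide 1 to 3. Sedanolide 3 lay among the controls and the other 2 sedanolide libraries lay above them. Its fold change was 1.17 (95% confidence interval 0.953 to 1.44, adjusted p = 0.530 from edgeR). RPE overlaps the antisense gene KANSL1L over 840 exon bases, which had 7.08% as many counts, and its 6 annotated processed pseudogenes took at most 0.129% each.

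**Figure D2:**
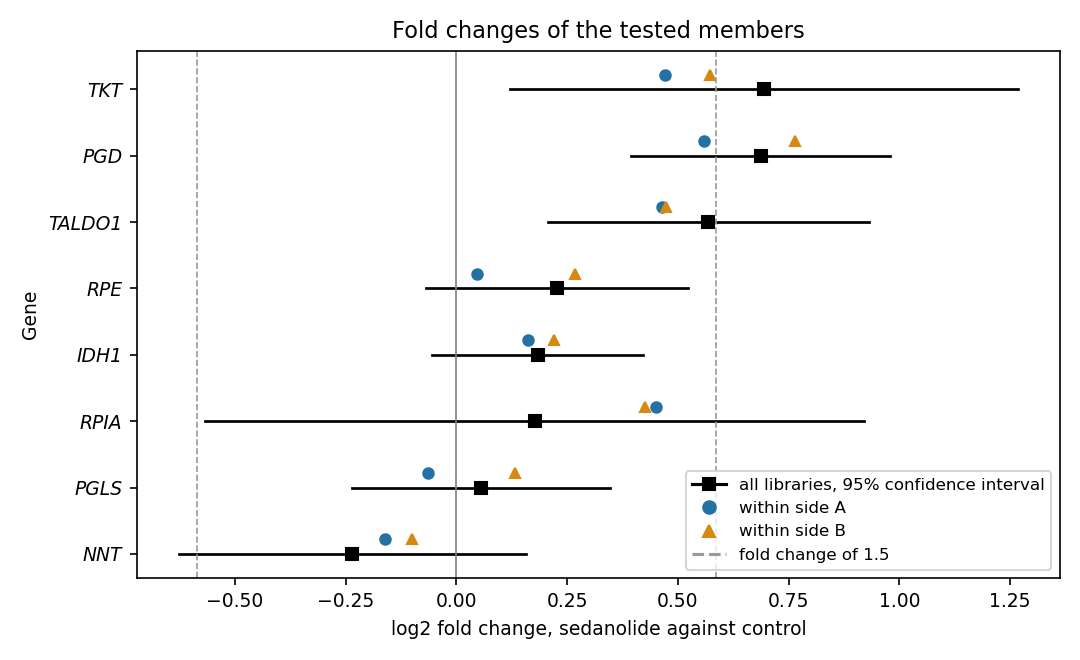
Log2 fold change (sedanolide against control) of the 8 tested genes from edgeR, with black squares and lines for the estimate and its 95% confidence interval over all libraries, blue circles and orange triangles for the differences within sides A and B of component 1, and dashed lines at a fold change of 1.5. PGD (0.69), TKT (0.69) and TALDO1 (0.57) have intervals above 0, and the intervals of the other 5 genes include 0.

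IDH1, a cytosolic and peroxisomal enzyme that makes NADPH from isocitrate, had the smallest spread of the 8 genes. IDH1 (ENSG00000138413, chromosome 2, 208236229 to 208266074) had 399.9, 385.4 and 379.0 CPM in controls 1 to 3 and 431.5, 452.0 and 439.1 CPM in sedanolide 1 to 3. The groups did not overlap, but the difference was small, with a fold change of 1.14 (95% confidence interval 0.963 to 1.34, adjusted p = 0.527 from edgeR). IDH1 had a smaller log2 fold change in the log2 TPM table (0.059, against 0.18 in the counts), where its groups overlapped. The ratio of PGD counts to IDH1 counts was 0.751, 0.651 and 0.713 in the control libraries and 1.03, 1.05 and 0.920 in the sedanolide libraries. This ratio was 1.42-fold higher with sedanolide and did not overlap between the groups (p = 0.10, exact permutation test, two-sided, the smallest that the design allows, and 0.15 after adjustment over the 3 ratios).

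NNT, which uses the proton gradient of mitochondria to reduce NADP+ with NADH, was the only one of the 8 genes with a negative log2 fold change. NNT (ENSG00000112992, chromosome 5, 43602692 to 43707405) had 62.5, 65.8 and 50.3 CPM in controls 1 to 3 and 41.7, 52.8 and 57.3 CPM in sedanolide 1 to 3. The groups overlapped, and the side A library was the highest in sedanolide and the side B library the lowest in control. Its log2 fold change was -0.24 with a standard error of 0.166 (edgeR, adjusted p = 0.627), -0.16 within side A and -0.10 within side B. NNT overlaps NNT-AS1, an antisense transcript with 27.7% as many counts, over 295 exon bases. The libraries were directional, but the strand setting of the counting is not given in the sources used here.

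ME1, the cytosolic malic enzyme, was at the limit of detection in these cells. ME1 (ENSG00000065833, chromosome 6, 83210402 to 83431051) had 1 count in control 1 and in sedanolide 3 and 0 in each of the other 4 libraries. A count of 0 allows up to 3 counts, or 0.116 to 0.17 CPM in the 4 libraries with 0 counts. This limit does not hold for the libraries with 1 count, which allow more. A difference in ME1 was thus not detectable at this depth. ME1 entered only the fit of all genes with at least 1 count, in which it was not called. No fold change is given because no library had more than 1 count. Such a limit covers counting error only.

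In levels per transcript length, the 8 genes spanned a wide range. The deposited log2 TPM table holds all of them except ME1, and the TPM recovered from it placed TKT highest in control cells at 613.3 ± 113.6 TPM, followed by IDH1 at 307.1 ± 29.5, TALDO1 at 228.7 ± 16.3, PGD at 208.9 ± 19.9, PGLS at 75.4 ± 6.03, RPE at 50.6 ± 2.71, NNT at 24.9 ± 5.67 and RPIA at 18.7 ± 6.77 TPM (SD, n = 3). Neighbors in this order overlapped between TALDO1 and PGD and between NNT and RPIA, and did not overlap elsewhere. In sedanolide-treated cells the level of PGD was 313.9 ± 20.1 TPM, that of TALDO1 315.9 ± 18.9 TPM and that of IDH1 319.6 ± 25.8 TPM (SD, n = 3). PGD and TALDO1 thus lay below IDH1 without overlap in control cells and overlapped with it in sedanolide-treated cells. TKT remained the highest at 887.9 ± 123.7 TPM (SD, n = 3). PGLS was at 72.8 ± 2.74 TPM (SD, n = 3), so that PGD exceeded it in both conditions.

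**Figure D3:**
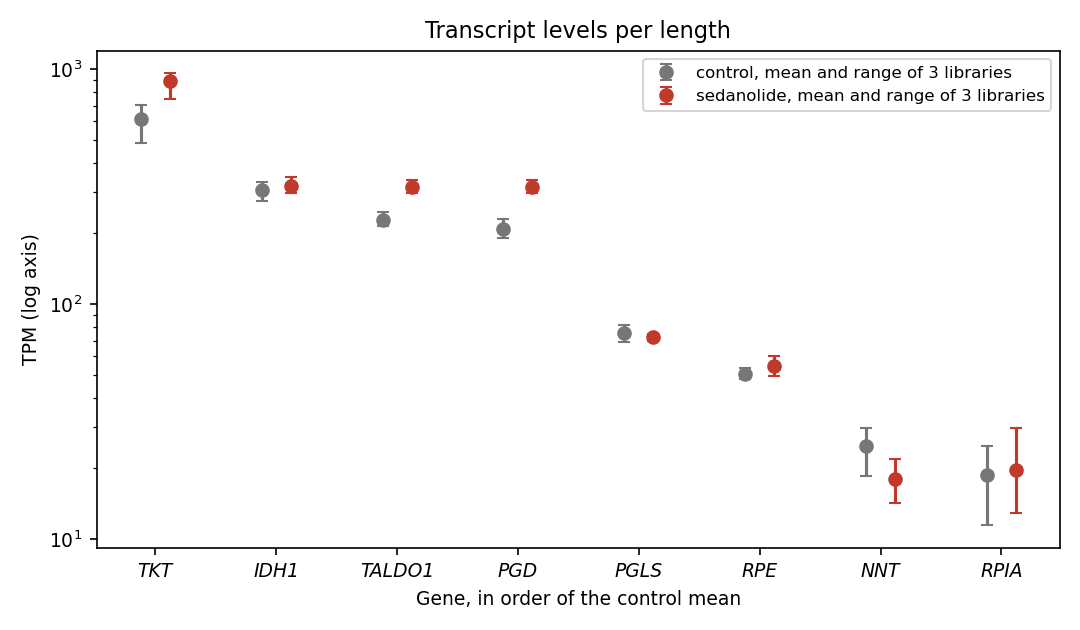
TPM (transcript level per length, log axis) of the 8 genes in the deposited log2 TPM table, in order of the control mean, with gray points for control and red points for sedanolide, and bars from the lowest to the highest of 3 libraries. PGD and TALDO1 lie below IDH1 in control cells and at its level (about 313.9 to 319.6 TPM) in sedanolide-treated cells.

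The promoters of the genes were searched for the core of the ARE, since the reporter of these cells is driven by it. RefSeq promoter windows on GRCh38.p14, from 250 bases before to 50 bases after a start site, were matched for 9 of the 9 genes, with more than 1 window for IDH1 and NNT. The general core TGACNNNGC, searched on both strands, was in a window of PGD, RPE, IDH1 and ME1, and 13.3% of all 35116 windows hold it. The core of the reporter, TGACTCAGC, which contains the AP-1 element TGACTCA, was in ME1 alone among the 9 genes, and 0.561% of all windows hold it. TGACTCA itself is in 4.95% of all windows and, among the 9 genes, only in that match in ME1. The windows of TKT and PGD, the genes with the largest log2 fold changes over all libraries, and of ME1, chosen for its match, are shown from 5′ to 3′ on the strand of the gene, with matches to TGACNNNGC on either strand in capitals.
PGD promoter, chr1:10398814-10399113, plus strand: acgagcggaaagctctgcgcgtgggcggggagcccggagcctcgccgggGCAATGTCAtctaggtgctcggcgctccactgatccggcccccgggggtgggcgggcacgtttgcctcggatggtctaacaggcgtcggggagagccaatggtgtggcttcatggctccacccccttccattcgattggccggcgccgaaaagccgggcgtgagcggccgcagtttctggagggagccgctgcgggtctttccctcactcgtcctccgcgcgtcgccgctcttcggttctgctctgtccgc
TKT promoter, chr3:53255973-53256272, minus strand: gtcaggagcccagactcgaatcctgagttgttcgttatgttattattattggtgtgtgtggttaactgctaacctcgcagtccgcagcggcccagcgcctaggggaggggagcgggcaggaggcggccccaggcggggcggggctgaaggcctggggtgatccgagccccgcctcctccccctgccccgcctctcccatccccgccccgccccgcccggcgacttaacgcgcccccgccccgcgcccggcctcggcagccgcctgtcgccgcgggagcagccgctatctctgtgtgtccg
ME1 promoter, chr6:83431002-83431301, minus strand: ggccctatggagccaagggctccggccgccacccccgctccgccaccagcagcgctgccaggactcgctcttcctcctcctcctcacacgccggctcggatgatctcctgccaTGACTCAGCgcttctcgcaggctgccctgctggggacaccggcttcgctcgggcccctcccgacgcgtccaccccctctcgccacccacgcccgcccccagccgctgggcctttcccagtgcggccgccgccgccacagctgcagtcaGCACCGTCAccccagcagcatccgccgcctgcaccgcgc
The match in PGD reads TGACATTGC on the minus strand of the gene and begins at base -201 from the start site. In ME1, TGACTCAGC begins at base -137 on the strand of the gene, and TGACGGTGC lies on the opposite strand from base 12. In these windows, the gene with the exact reporter core was the one with at most 1 count in a library, and TKT had no match within its window.

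Other genes of the pathway were examined with lists written from general knowledge. Of 16 other genes of the pentose phosphate pathway and of the pools it feeds, 13 had enough counts and none was called, with 0 higher and 2 lower at an unadjusted p-value under 0.05, against 5.35% and 6.57% of all genes tested. The median log2 fold change of the 13 was -0.13. Without overlap between the groups, 1 of the 13 was higher and 5 were lower, against 8.69% and 9.66% of all genes tested. The extremes were PGM2 (a phosphopentomutase), with 30.3, 35.1 and 34.5 CPM in controls and 41.9, 40.2 and 36.2 CPM in sedanolide libraries and a log2 fold change of 0.24, and H6PD, which runs the oxidative branch in the endoplasmic reticulum, with -0.54 (edgeR, adjusted p = 0.629) and overlapping groups. The 2 genes lower at an unadjusted p-value under 0.05, named after their values were seen, were SHPK (sedoheptulokinase) and PRPSAP1. SHPK had a log2 fold change of -0.48 (edgeR, adjusted p = 0.175). PRPSAP1, a subunit associated with phosphoribosyl pyrophosphate synthetase, had -0.31 (edgeR, adjusted p = 0.343). TKTL1, TKTL2 and RPEL1, relatives of TKT and RPE, had 0 to 4 counts in a library and were not tested.

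Of 11 other genes listed for the production or supply of NADPH, 10 had enough counts and none was called. Which of these enzymes work mainly with NAD+ instead was not examined. At an unadjusted p-value under 0.05, 3 of the 10 were higher and 1 was lower (5.35% and 6.57% of all genes tested). Their median log2 fold change was 0.04. ALDH1L1, which oxidizes formyltetrahydrofolate with NADP+, had the largest value of this list. Its expression was 42.1, 29.4 and 37.3 CPM in controls 1 to 3 and 73.4, 74.0 and 53.0 CPM in sedanolide 1 to 3, without overlap. The log2 fold change of ALDH1L1 was 0.88 ± 0.191 (standard error), with an adjusted p of 0.131. GLUD1, the mitochondrial glutamate dehydrogenase, had the smallest, with 814.9, 841.5 and 766.9 CPM in controls 1 to 3 and 442.3, 516.4 and 503.8 CPM in sedanolide 1 to 3. These groups were far apart, and its log2 fold change of -0.73 had an adjusted p of 0.0513, just above the threshold. The other 2 higher genes, named after their values were seen, were MTHFD2 and ME2, mitochondrial enzymes of folate and malate metabolism, with log2 fold changes of 0.58 (adjusted p = 0.186) and 0.54 (adjusted p = 0.328). NADK, also named after its values were seen, which phosphorylates NAD+ to NADP+, had nearly equal means of 63.7 ± 4.99 CPM without and 63.8 ± 4.18 CPM with sedanolide (SD, n = 3).

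Of 17 genes whose enzymes use NADPH, 16 had enough counts, and 4 of them were higher at both thresholds and 0 were lower, where 0.362% of all genes tested were higher. These were AKR1B10 (log2 fold change 3.27), AKR1C1 (2.29), TXNRD1 (1.49) and NQO1 (1.21), reductases that the study had named on these libraries, so that their direction is not independent evidence. FASN, the fatty acid synthase, named after its values were seen, was not called, with a log2 fold change of 0.030 (95% confidence interval -0.30 to 0.36). Of 7 genes that set the pool of glucose 6-phosphate, from which the pathway starts, 6 had enough counts. G6PC1, the phosphatase that releases glucose from it, was lower at both thresholds (0.312% of all genes tested were lower), with 13.9, 18.5 and 9.44 CPM in controls 1 to 3 and 1.83, 1.89 and 3.09 CPM in sedanolide 1 to 3. HK1 (hexokinase 1), named after its values were seen, had 11.5, 10.8 and 13.4 CPM in controls and 23.8, 19.2 and 15.5 CPM in sedanolide libraries. The log2 fold change of HK1 was 0.71 (edgeR, adjusted p = 0.202). HK2 (hexokinase 2), also named after its values were seen, had overlapping groups, with means of 231.9 CPM in control and 207.9 CPM in sedanolide. Its log2 fold change was -0.16 (edgeR, adjusted p = 0.871). Of the 6 tested genes of this list, 3 had log2 fold changes above 0 and 3 below, with a median of -0.05. Without overlap, 1 was higher and 2 were lower, against 8.69% and 9.66% of all genes tested. Without control 1 or without sedanolide 2, none of these 5 called genes was past both thresholds of edgeR. In these fits, 1067 (7.35%) and 889 (6.27%) of the genes tested had p under 0.05 before adjustment, against 11.9% with all libraries.

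**Figure D4:**
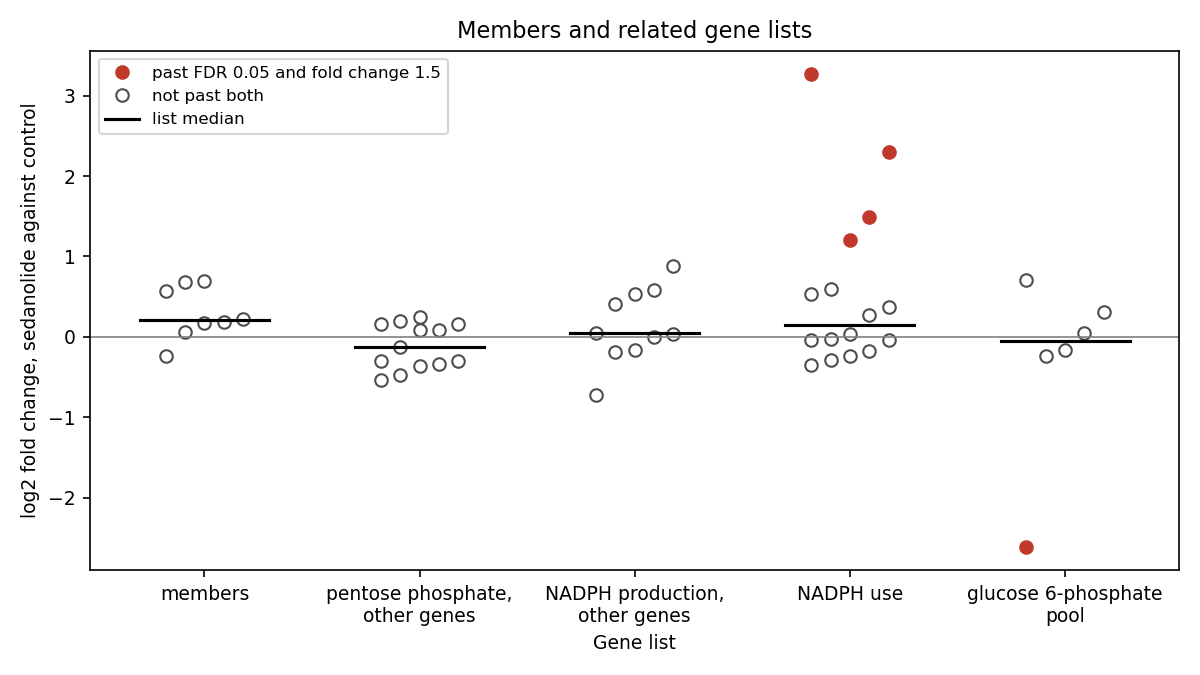
Log2 fold change (sedanolide against control, edgeR) of each tested gene of the 9 enzymes and of the 4 related lists, with filled red points for genes past both thresholds, open points for the others and a line at each list median. The called genes are 4 genes of NADPH use, from 1.21 to 3.27, and G6PC1 at -2.61.

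TKT was compared with all other genes tested by the Pearson correlation of log2 CPM over the 6 libraries, which share the treatment and the sides of component 1. Of the 5 genes with the highest correlation, NT5M, FKBP4, STAT5B and PRMT1 had r between 0.997 and 0.998, and 410 genes had r above 0.95. FKBP4, a cochaperone of HSP90, had 120.2, 85.6 and 146.9 CPM in controls 1 to 3 and 239.9, 215.6 and 145.4 CPM in sedanolide 1 to 3 and placed the 6 libraries in the same order as TKT. STAT5B had a log2 fold change of 0.08 only, so that a high correlation did not mean a similar fold change.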

How the data were processed

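RNA-seq of 3 control and 3 sedanolide libraries was analyzed. The authors captured mRNA, prepared directional libraries, sequenced 150 bp paired-end reads, and used FastQC for quality, Trimmomatic for trimming, STAR for alignment (GRCh38) and RSEM for quantification (versions not given in the sources used here). They deposited expected counts without normalization, and log2(TPM + 1) for 11006 rows, a scale read from the values. Expected counts were rounded and tested in R 4.3.3 with edgeR 4.0.16 (filterByExpr, TMM, robust quasi-likelihood, condition as the only term), with Benjamini-Hochberg adjustment over all genes tested. The standard error is the log2 fold change divided by the square root of F. Alternatives were DESeq2 1.42.0, limma 3.58.1 on the log2 TPM table with a pseudocount of 1 or 0.1, median-of-ratios size factors, all genes with at least 1 count, the replicate number or the side of component 1 as a term, and each library left out. DESeq2 is the authors' method, but it called more genes here than the study reported at the same cutoffs. The fit was also run on simulated counts with the same dispersion for all genes and no split of the libraries. That setting is simpler than these data and checks the code only. Replicates were not duplicates, as their counts differed by more than sampling noise (chi-square per degree of freedom of at least 20.9). Positions are from GENCODE 44, in which 61369 identifiers were found.

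The genes and lists were chosen with earlier results of these data known. All 9 enzymes were named. From each list, genes past a threshold were named, or else those with the largest and smallest log2 fold change, and further genes where the text says so. Some genes are not reported here.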

Additional observations from a re-analysis of the deposited data

How the results depend on the processing

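Of 104 log2 fold changes of the 8 tested enzymes in other fits, 97 kept their direction and their call by both thresholds together, and 15 of 16 differences within a side, which have no test, kept their direction. PGD was past both thresholds with DESeq2 (log2 fold change 0.69) and with a term for the side (0.66). PGLS had a log2 fold change of -0.048 and -0.049 in the log2 TPM table with a pseudocount of 1 and 0.1 and of -0.065 within side A, and ranged from -0.016 to 0.11 when each library was left out. That of RPIA ranged from -0.16 to 0.37 (-0.045 without control 3). The cause was not tested.

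Of the 8 enzymes, 1 was past both thresholds and 2 were past the FDR threshold alone with DESeq2 and with the side as a term, and 5 were under an unadjusted p-value of 0.05 with the side as a term, where 19.5% of all genes were, against 11.9% without it. With each library left out, 0 were past the FDR threshold and 2 to 4 were under an unadjusted p-value of 0.05. With limma on the log2 TPM table, 0 of the 8 were past the FDR threshold and 3 were under an unadjusted p-value of 0.05. Among all genes, 95 were past both thresholds, against 328 with DESeq2, 158 with all genes of at least 1 count, 381 with the side as a term, and 0 to 136 with each library left out. The 0 came without control 1 and without sedanolide 2. In the 4 lists, 5 genes were past both thresholds, against 8 with DESeq2, 8 with the side as a term, and 0 to 6 with each library left out (0 without control 1 or sedanolide 2, 1 without control 2 and 2 without sedanolide 1).

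The labels do not say whether the replicate number pairs the libraries. The deviations of control and sedanolide libraries of the same number correlated at -0.133, -0.295 and -0.73. Libraries of the same number lie on opposite sides of component 1, so that these correlations cannot decide whether they were paired. With the replicate number as a block, 0 of all genes, 0 of the enzymes and 0 of the list genes were past both thresholds of edgeR. In that fit, 772 genes (5.47% of those tested, against 11.9% without the block) and 2 enzymes were under an unadjusted p-value of 0.05. The 3 ratios between enzymes kept their direction under the alternatives added for them after seeing the data. Low counts limit ME1. RPIA had 246 to 843 counts in a library, and the width of its interval comes from the spread between libraries.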
